A study of Mus musculus with 25 samples.

Results

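The genes described here are 40 genes of S phase and mitosis, followed library by library in mouse CD4 T cells that lacked miR-150, carried a miR-150 knock-in or were wild-type. They come from a written list of proliferation genes drawn up with earlier results of these data known. Each was matched to 1 Ensembl gene of the 46078 in the count table, and all 40 were among the 14703 genes with enough counts to be tested. The list was split by role into 16 S-phase genes (origin licensing, nucleotide supply, the clamp Pcna, the methylation-copying factor Uhrf1 and the E-type cyclins) and 24 mitosis genes. The mitosis genes are all others of the list. They include Top2a, Hmgb2, Ccna2 and Mki67, which are not confined to mitosis, so the contrast of both sets depends in part on this split.

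The RNA was from CD4 T cells sorted out of mice on the C57BL/6NTac background, in 6 groups. These were 4 knock-out (KO) libraries at day 7 of experimental autoimmune encephalomyelitis (EAE) and 4 from naive KO mice, 4 knock-in (KI) libraries at day 7 and 4 from naive KI mice, and 5 wild-type (WT) libraries at day 7 and 4 from naive WT mice. EAE is a model of multiple sclerosis in which mice are immunized against myelin, and miR-150 is a microRNA abundant in resting lymphocytes. The organ from which the cells were sorted, the design of the alleles, the cell types that carry them and the age and sex of the mice are not given in the labels. Nor is it said that each library is a mouse of its own; the p-values below therefore reflect the spread between libraries, part of which may be technical.

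Cells that leave rest load the MCM2 to MCM7 helicase onto replication origins, make deoxynucleotides and copy their DNA in S phase. They then raise the A- and B-type cyclins with CDK1, condense and attach their chromosomes, and destroy the mitotic regulators through the anaphase-promoting complex. Many S-phase genes are targets of E2F factors, and many mitosis genes are held off in resting cells by the DREAM complex at a promoter element called CHR. Naive T cells rest outside the cycle, and T cells that meet antigen divide within days. Below, however, naive cells means CD4 T cells from naive mice, after the stage in the labels. The labels do not say that resting or naive T cells were selected from them.

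Libraries held 6024043 to 49489134 counts (median 16312725), and those of naive WT mice, at 6024043 to 9351180, were shallow. Mir150 had 0 counts in all 8 KO libraries, as the knock-out label says, and 105 to 743 counts in each of the other libraries. These raw counts are not scaled to depth and do not compare KI with WT cells. The summed level of 8 CD4 T cell genes was 2036 to 2342 CPM (counts scaled to library size) in every library. Markers of other cells were low. Of 10 B cell genes, Ighm had 135 to 184 CPM and each of the others at most 7.00 CPM. A list of 8 genes of erythroid cells summed to at most 10.3 CPM and 10 myeloid genes to at most 30.4 CPM. A list of 8 genes of cytotoxic, NK and gamma-delta T cells summed to 17.6 to 29.0 CPM in day 7 libraries, against 25.9 to 54.0 CPM in naive libraries. In limma's quality weighting KO day 7 replicate 3 had the lowest weight, 0.144. The mitosis genes stood highest in 2 libraries, KO day 7 replicate 2 and KI day 7 replicate 1, and were low in WT day 7 replicate 4. Counts of genes called in the average are also given without the 2 high libraries.

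Cells at day 7 were compared with naive cells of the same genotype, and the 3 differences were then averaged. In that average 23 of the 40 genes rose at day 7, 0 fell and 17 did not pass the test (edgeR quasi-likelihood test, Benjamini-Hochberg adjusted p under 0.05 over all genes tested). Of all tested genes, 6.16% were called higher and 5.06% lower. Of the mitosis genes, 17 of 24 rose, led in size by Ube2c (log2 fold change 1.64, SE 0.40, adjusted p = 0.00706) and Ccna2 (1.60, SE 0.30, adjusted p = 0.000738). Of the S-phase genes, 6 of 16 rose: Cdc6, Mcm4, Mcm5, Rrm2, Tk1 and Uhrf1. The median log2 fold change was 0.80 over the 40 genes, 1.08 over the mitosis genes and 0.27 over the S-phase genes, beside -0.0036 over all genes tested. In bulk RNA, a higher share of dividing cells and more RNA per cell cannot be told apart.

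The call rested in part on 2 libraries. Without KO day 7 replicate 2 and KI day 7 replicate 1, a setting added after the data were seen, 7 genes were still called higher, beside 4.94% of all genes in that fit. These were Rrm2, Uhrf1, Hmgb2, Ccna2, Birc5, Cenpa and Cenpf, that is 5 of 24 mitosis genes and 2 of 16 S-phase genes, and the median over the 40 genes was 0.51. Both libraries were picked because these genes stood highest there, so leaving them out was bound to lower the day 7 difference. Leaving out the low WT day 7 replicate 4 alone gave 26 genes called higher, beside 1002 of all 14561 genes tested. With neighbouring library numbers as a covariate 15 genes were called higher, beside 800 of all 14703 genes tested. Mcm4, Mcm5, Tk1, Ccnb2, Cdk1, Aurka, Aurkb and Nusap1 were not called in that fit. DESeq2 called 26 genes higher (7.07% of all genes) and limma voom with quality weights 15 (4.42%).

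**Figure D1:**
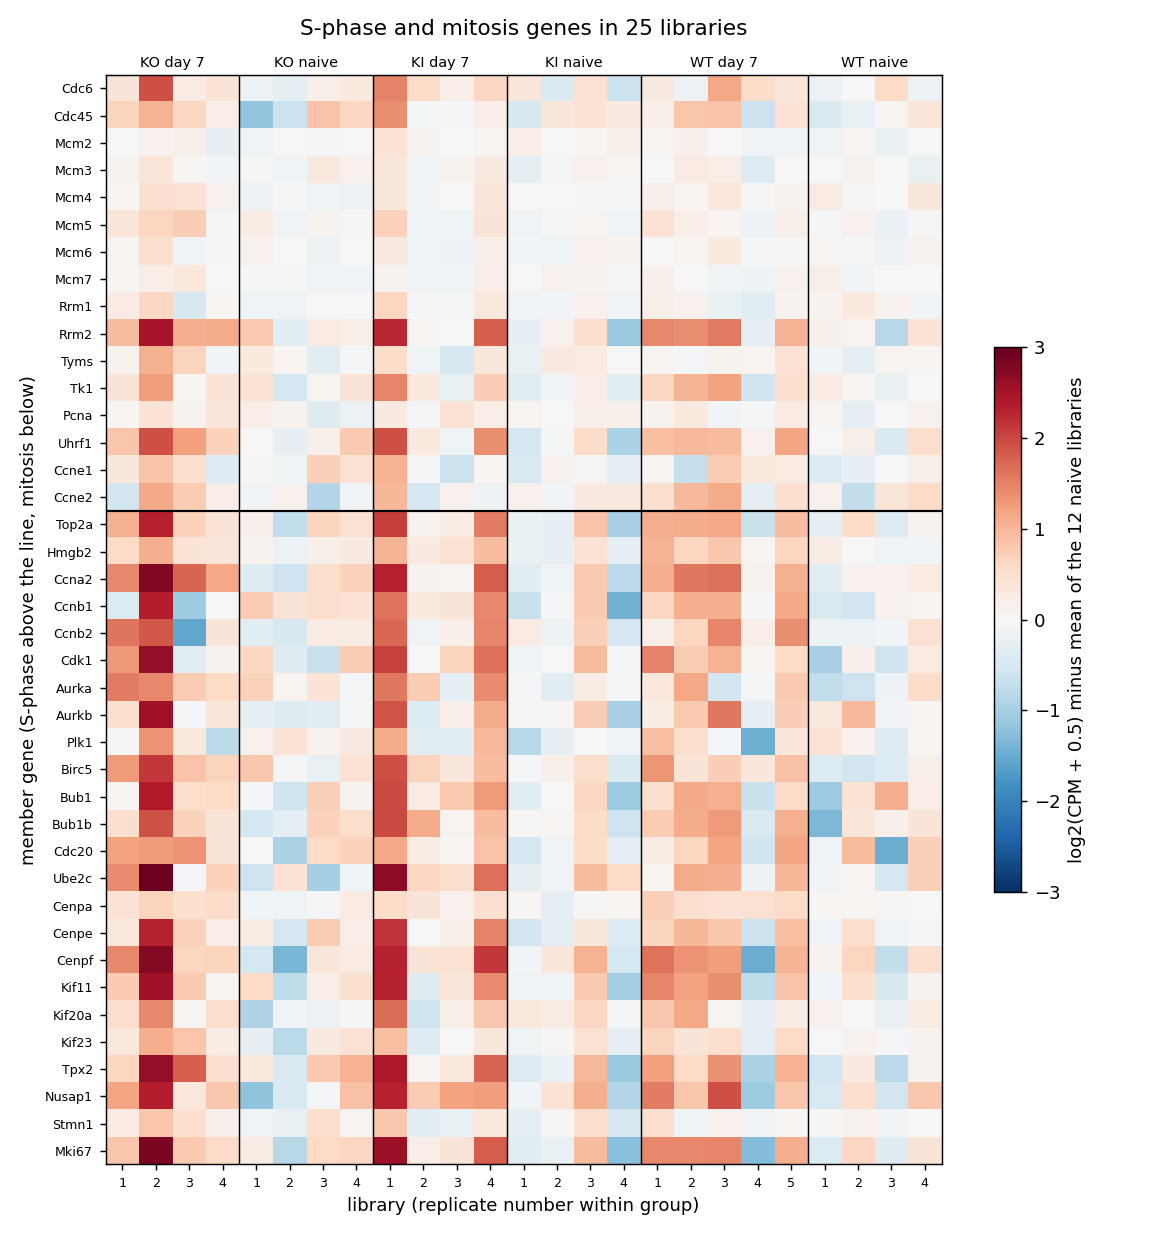
Level of each of the 40 genes (rows, S-phase above the line and mitosis below) in each of the 25 libraries (columns, by group and replicate number), as log2(CPM + 0.5) minus the mean of the 12 naive libraries; red is higher and blue lower. Red is deepest in KO day 7 replicate 2 and KI day 7 replicate 1, and the rows of Mcm2 to Mcm7 stay pale throughout.

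The log2 fold change was above 0 in all 3 genotypes for 37 of the 40 genes (92.5%, beside 21.1% of all genes tested), the exceptions being Mcm4, Mcm7 and Rrm1. Without the 2 high libraries it was above 0 in all 3 for 25 genes (62.5%, beside 21.0% of all genes in that fit). Within single genotypes few genes passed the test. In KO cells only Cenpa was called (beside 0.211% of all genes called higher), while in KI cells (1.01%) and in WT cells (1.18%) both Cenpa and Hmgb2 were. The median log2 fold change over the 40 genes was 0.97 in KO, 0.93 in KI and 0.56 in WT cells. It was 0.43 in KO cells without replicate 2 of day 7 and 0.54 in KI cells without replicate 1 of day 7. In simulated counts with the WT group sizes, 50.7% of genes changed 1.5-fold, 50.0% of genes changed 2-fold and 89.2% of genes changed 4-fold were called. The changed genes were drawn at random from all genes tested, so these rates are not those of the 40 genes.

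Groups did not overlap for a part of the genes. In KO cells all 4 day 7 libraries lay above all 4 naive libraries for 9 genes (Mcm4, Mcm7, Rrm2, Hmgb2, Ccna2, Aurkb, Cenpa, Cenpf and Kif20a), which is 22.5% of the list beside 2.43% of all genes. In KI cells this held for Cenpa alone, 2.5% of the list, which is below the 4.7% of all genes. In WT cells it held for Birc5 and Cenpa, 5.0% of the list beside 2.94% of all genes.

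The level of the whole list can be followed as a sum. The 24 mitosis genes summed to 339.6, 792, 314 and 274 CPM in KO day 7 libraries, against 212.4, 153, 259.9 and 266 CPM in KO naive libraries. In KI cells the mitosis sum was 687, 232, 251 and 485 CPM at day 7, against 174, 179, 313 and 142 CPM in naive cells. In WT cells the mitosis sum was 429, 384, 406, 169 and 354 CPM at day 7, against 196, 245, 175 and 221.2 CPM in naive cells. The means differed 1.93-fold in KO, 2.05-fold in KI and 1.66-fold in WT cells, and 9 of the 13 day 7 libraries lay above all 12 naive libraries. The 16 S-phase genes summed to 402, 536, 436 and 379.7 CPM in KO day 7 libraries, against 371, 355, 358 and 364 CPM in KO naive libraries. In KI cells the S-phase sum was 512, 352, 366 and 450.1 CPM at day 7, against 355, 363, 395 and 369 CPM in naive cells. In WT cells the S-phase sum was 409.6, 418, 418, 339.8 and 404 CPM at day 7, against 383, 365, 352 and 389 CPM in naive cells. Here the means differed 1.21-fold in KO, 1.13-fold in KI and 1.07-fold in WT cells. Mcm2 to Mcm7 supplied 73.8% of the S-phase sum and Hmgb2 with Mki67 49.7% of the mitosis sum, so these genes weigh most in the sums.

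**Figure D2:**
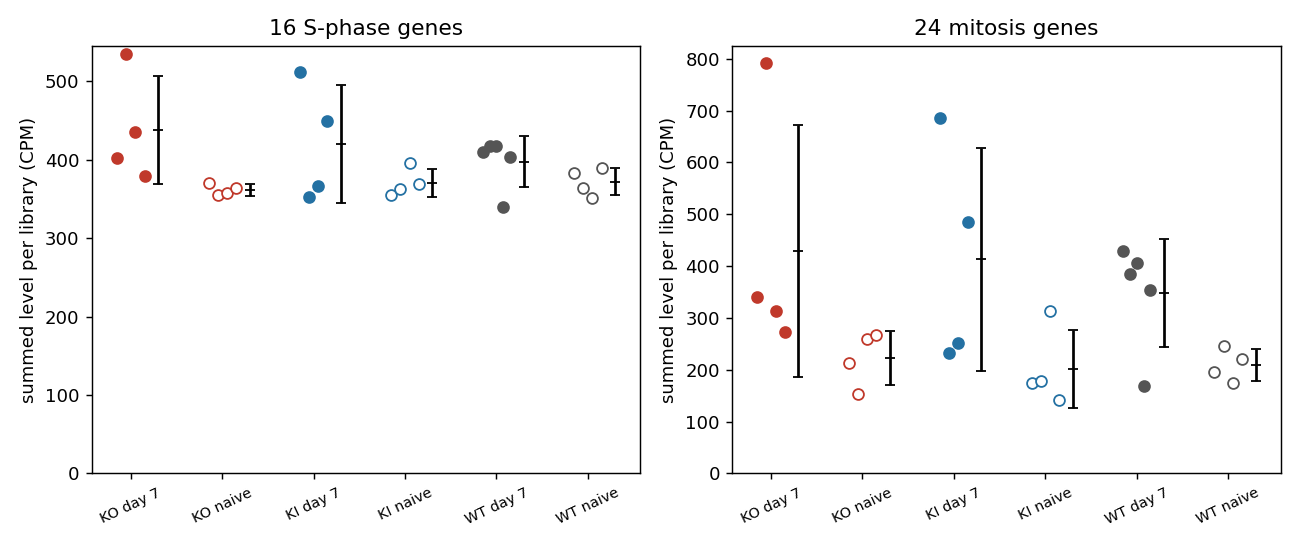
Summed level (CPM) of the 16 S-phase genes (left) and the 24 mitosis genes (right) in each library by group; filled points are day 7, open points naive, and the bar beside each group is its mean ± SD. In the mitosis panel KO day 7 replicate 2 stands at 792 CPM and KI day 7 replicate 1 at 687 CPM, while WT day 7 replicate 4 lies at 169 CPM among the naive libraries.

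Single libraries carried much of the spread. KO day 7 replicate 2 was the highest of all 25 libraries for 28 of the 40 genes, beside 4.61% of all genes. KI day 7 replicate 1 was the highest for 8, beside 5.91% of all genes. WT day 7 replicate 4 was the lowest of its group for 32 genes (21.9% of all genes), and KI naive replicate 3 the highest of its group for 32 (21.2% of all genes). For each of the 40 genes, the highest library was from day 7, as were 13 of the 25 libraries. The share of all genes with their highest library at day 7 is not given here, but KO day 7 replicate 3 alone held 11.7%. A list of 10 activation and effector genes, among them Il2ra, Icos and Cd44, is given beside the mitosis sum. Its effector cytokines were scarce: Il17a had no count in 24 of the 25 libraries and Ifng reached at most 0.721 CPM. Il2ra ran from 57.9 to 112 CPM at day 7 and from 71.6 to 110 CPM in naive cells. Icos ran from 29.9 to 78.4 CPM at day 7 and from 20.3 to 38.4 CPM in naive cells. The whole list summed to 227, 341, 231 and 220.8 CPM in KO day 7 libraries, against 218.3, 200.3, 244 and 231 CPM in KO naive libraries. For KI cells this sum was 328, 217.8, 226 and 262 CPM at day 7, against 216.995, 227, 249 and 198 CPM in naive cells. For WT cells this sum was 218.7, 287, 273, 189.7 and 255 CPM at day 7, against 229.8, 243, 210.6 and 239.7 CPM in naive cells. The libraries with the highest mitosis sum of the KO and KI day 7 groups also had the highest effector sum there, and WT day 7 replicate 4 had the lowest of its group on both. WT day 7 replicate 1, the highest of its group in mitosis sum, had the second lowest effector sum there. Rgs13, a marker of germinal centre B cells, which divide fast, had no count in any of the 25 libraries. Jchain, of plasma cells, reached 20.7 CPM. The list of 8 germinal centre and plasma cell genes summed to 30.6 to 43.2 CPM in KO day 7 libraries, against 27.9 to 31.1 CPM in KO naive libraries, and the ranges overlapped. In KI cells that list summed to 34.6 to 62.3 CPM at day 7, against 29.0 to 33.6 CPM in naive cells, without overlap. In WT cells that list summed to 31.7 to 37.5 CPM at day 7, against 26.9 to 34.1 CPM in naive cells, and the ranges overlapped. The highest library on it was KI day 7 replicate 4. The part of these cells in the result was not tested.

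Promoters of 4 genes are shown, for the motifs that S-phase and mitosis genes are known to carry. In each role group the called gene with the smallest p in the average was taken, where a promoter was held. The 4 with the smallest p of these are shown, and all 4 were also called without the 2 high libraries. Cenpa (chr5:30666636-30666935), Hmgb2 (chr8:57511593-57511892), Birc5 (chr11:117848987-117849286) and Rrm2 (chr12:24708004-24708303) are all on the plus strand, and the windows run from 250 bases before to 50 bases after the annotated start (RefSeq, GRCm38.p6). Capitals mark matches on either strand to the CHR element (TTTGAA), to the E2F core (written as TTCCCGC, as TTGGCGC, as TTCGCGC or as TTGCCGC) and to the CCAAT box (CCAAT). No match overlaps another in these windows.
Cenpa: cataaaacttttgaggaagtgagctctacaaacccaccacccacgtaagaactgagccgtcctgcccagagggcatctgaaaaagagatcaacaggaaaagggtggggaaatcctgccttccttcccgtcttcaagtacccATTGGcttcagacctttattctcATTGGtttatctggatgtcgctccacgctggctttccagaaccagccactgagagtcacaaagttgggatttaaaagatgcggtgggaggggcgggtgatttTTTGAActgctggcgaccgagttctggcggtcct
Hmgb2: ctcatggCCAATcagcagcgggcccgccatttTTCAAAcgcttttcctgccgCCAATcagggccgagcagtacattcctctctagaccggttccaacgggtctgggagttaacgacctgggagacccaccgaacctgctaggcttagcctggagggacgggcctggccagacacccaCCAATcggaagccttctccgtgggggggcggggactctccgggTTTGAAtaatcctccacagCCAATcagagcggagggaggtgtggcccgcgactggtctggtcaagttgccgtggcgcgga
Birc5: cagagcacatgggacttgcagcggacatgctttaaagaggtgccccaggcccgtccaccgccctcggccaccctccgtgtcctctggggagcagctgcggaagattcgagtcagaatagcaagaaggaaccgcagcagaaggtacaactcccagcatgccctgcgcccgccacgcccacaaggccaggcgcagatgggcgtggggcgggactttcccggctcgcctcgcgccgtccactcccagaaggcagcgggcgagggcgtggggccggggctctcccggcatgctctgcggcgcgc
Rrm2: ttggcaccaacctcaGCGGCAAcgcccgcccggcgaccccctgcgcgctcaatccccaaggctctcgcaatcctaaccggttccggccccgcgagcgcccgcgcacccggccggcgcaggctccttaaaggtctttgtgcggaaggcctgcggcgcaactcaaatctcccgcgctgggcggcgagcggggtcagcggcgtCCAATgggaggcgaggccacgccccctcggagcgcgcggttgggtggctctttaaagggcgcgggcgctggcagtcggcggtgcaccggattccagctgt

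Cenpa held 1 CHR match and 2 CCAAT boxes, Hmgb2 2 CHR matches and 4 CCAAT boxes, Rrm2 1 E2F core and 1 CCAAT box, and Birc5 no match in this window. RefSeq windows were held for 33 of the 40 genes, as 35 promoters. CHR matched 73.7% of the 19 mitosis promoters and 12.5% of the 16 S-phase promoters, beside 17.9% of all 32851 promoters. The E2F core matched 15.8% of mitosis promoters and 62.5% of S-phase promoters, beside 9.57% of all. CCAAT boxes were in 89.5% of mitosis promoters and 75.0% of S-phase promoters, beside 37.4% of all. Letters alone do not show that a factor binds.

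Origin licensing and firing showed the smallest changes, with a median averaged log2 fold change of 0.15 and 3 of 8 genes called, or 0 of 8 without the 2 high libraries. None of Mcm2 to Mcm7 varied more than 1.92-fold over the 25 libraries. Cdc6 loads the MCM helicase onto origins and is made anew when cells leave rest. Cdc6 had 2.08, 7.06, 1.84 and 2.13 CPM in KO day 7 libraries, against 1.26, 1.13, 1.70 and 1.91 CPM in KO naive libraries. In KI libraries Cdc6 had 5.05, 2.39, 1.77 and 2.51 CPM at day 7, against 1.99, 0.958, 2.22 and 0.759 CPM in naive cells. WT libraries gave Cdc6 1.88, 1.23, 3.90, 2.38 and 2.04 CPM at day 7, against 1.26, 1.48, 2.47 and 1.24 CPM in naive cells. Cdc6 rose in the average (log2 fold change 0.83, SE 0.26, adjusted p = 0.0321), with KO day 7 replicate 2 the highest library and 4 of 13 day 7 libraries above every naive library. Cdc6 lost this call in 11 of 31 alternative fits. Mcm4 is a helicase subunit. Mcm4 had 58.3, 79.2, 76.1 and 61.5 CPM in KO day 7 libraries, against 51.0, 55.0, 51.5 and 49.5 CPM in KO naive libraries. In KI libraries Mcm4 had 70.8, 52.8, 55.9 and 72.8 CPM at day 7, against 56.7, 55.5, 54.8 and 54.7 CPM in naive cells. WT libraries gave Mcm4 62.3, 58.6, 70.2, 57.8 and 60.2 CPM at day 7, against 67.03, 55.2, 56.7 and 71.7 CPM in naive cells. Mcm4 rose in the average by a small amount (log2 fold change 0.19, SE 0.06, adjusted p = 0.0355), with KO groups apart and WT groups overlapping. Mcm4 lost this call in 13 of 32 alternative fits. Its log2 fold changes were 0.41 in KO, 0.19 in KI and -0.02 in WT. Mcm5, another subunit, was the most variable of the 6. Mcm5 had 28.4, 34.6, 36.6 and 21.1 CPM in KO day 7 libraries, against 25.6, 20.3, 23.6 and 22.5 CPM in KO naive libraries. In KI libraries Mcm5 had 35.9, 20.3, 20.1 and 28.8 CPM at day 7, against 20.2, 21.2, 23.1 and 20.3 CPM in naive cells. WT libraries gave Mcm5 29.6, 25.1, 23.1, 19.3 and 24.7 CPM at day 7, against 21.4, 23.9, 19.1 and 22.4 CPM in naive cells. Mcm5 rose in the average (log2 fold change 0.29, SE 0.09, adjusted p = 0.0453), and 6 of 13 day 7 libraries lay above every naive library. Mcm5 lost this call in 21 of 32 alternative fits. Mcm6 is the subunit with the highest mean CPM after Mcm4. Mcm6 had 61.1, 82.3, 54.8 and 55.1 CPM in KO day 7 libraries, against 63.6, 57.5, 52.1 and 58.4 CPM in KO naive libraries. In KI libraries Mcm6 had 69.6, 52.7, 51.4 and 63.9 CPM at day 7, against 54.7, 53.3, 62.9 and 62.4 CPM in naive cells. WT libraries gave Mcm6 58.7, 61.5, 71.1, 56.5 and 59.6 CPM at day 7, against 61.1, 55.6, 51.9 and 62.5 CPM in naive cells. Mcm6 did not pass the test (averaged log2 fold change 0.08, SE 0.06, adjusted p = 0.492), and day 7 and naive libraries overlap in every genotype. Mcm2, Mcm3 and Mcm7 ran from 39.9 to 63.3, 34.8 to 58.8 and 44.05 to 60.6 CPM, with averaged log2 fold changes of 0.06, 0.10 and 0.06, none called. Cdc45, which joins the helicase at firing, ran from 0.733 to 6.80 CPM and was not called (0.50, SE 0.27, adjusted p = 0.260).

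Nucleotide supply changed in 2 of 4 genes, or in 1 of 4 (Rrm2) without the 2 high libraries. Ribonucleotide reductase makes deoxynucleotides from a large subunit, Rrm1, and a small subunit, Rrm2, that limits it in S phase. Rrm2 (chromosome 12, 24708241 to 24714146 in mm10) rose most of all S-phase genes. Rrm2 had 5.91, 18.2, 6.77 and 6.84 CPM in KO day 7 libraries, against 5.37, 2.20, 3.52 and 3.33 CPM in KO naive libraries. In KI libraries Rrm2 had 15.7, 3.08, 2.92 and 11.2 CPM at day 7, against 2.38, 3.19, 4.33 and 1.06 CPM in naive cells. WT libraries gave Rrm2 8.73, 8.45, 9.43, 2.38 and 6.43 CPM at day 7, against 3.30, 3.09, 1.41 and 4.02 CPM in naive cells. Rrm2's averaged log2 fold change was 1.36, SE 0.28, adjusted p = 0.00204, KO groups did not overlap, and 10 of 13 day 7 libraries lay above all naive libraries. Its partner Rrm1 varied less. Rrm1 had 25.7, 33.5, 15.2 and 22.5 CPM in KO day 7 libraries, against 19.6, 19.6, 21.7 and 21.5 CPM in KO naive libraries. In KI libraries Rrm1 had 34.1, 20.6, 20.6 and 26.6 CPM at day 7, against 19.6, 20.1, 23.5 and 19.7 CPM in naive cells. WT libraries gave Rrm1 24.2, 23.7, 18.7, 17.2 and 23.2 CPM at day 7, against 23.2, 26.3, 23.1 and 20.3 CPM in naive cells. Rrm1 was not called (0.13, SE 0.10, adjusted p = 0.470), and its log2 fold changes were 0.21 in KO, 0.29 in KI and -0.12 in WT. Tk1, thymidine kinase, salvages thymidine. Tk1 had 3.53, 6.78, 2.63 and 3.58 CPM in KO day 7 libraries, against 3.69, 1.63, 2.76 and 3.53 CPM in KO naive libraries. In KI libraries Tk1 had 7.98, 3.23, 2.13 and 4.58 CPM at day 7, against 1.95, 2.40, 3.04 and 1.97 CPM in naive cells. WT libraries gave Tk1 4.23, 5.69, 6.59, 1.51 and 3.79 CPM at day 7, against 3.14, 2.69, 2.12 and 2.58 CPM in naive cells. Tk1 rose in the average (0.70, SE 0.23, adjusted p = 0.0428). Tk1 lost this call in 19 of 32 alternative fits, among them 16 of the 25 that each left out 1 library. Tyms makes thymidylate. Tyms had 6.17, 12.3, 9.20 and 5.33 CPM in KO day 7 libraries, against 6.99, 5.95, 4.40 and 5.37 CPM in KO naive libraries. In KI libraries Tyms had 8.45, 5.16, 3.90 and 7.26 CPM at day 7, against 4.75, 6.87, 6.82 and 5.62 CPM in naive cells. WT libraries gave Tyms 6.06, 5.38, 6.15, 6.003 and 7.75 CPM at day 7, against 5.34, 4.57, 5.999 and 5.88 CPM in naive cells. Tyms was not called (0.26, SE 0.14, adjusted p = 0.262) and its groups overlap in every genotype.

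At the replication fork and in the copying of chromatin, 3 of 4 genes rose, or 2 of 4 (Uhrf1 and Hmgb2) without the 2 high libraries. Pcna, the sliding clamp, had the highest level per length of the S-phase genes, at 18.5 CPM per kb of exon over all libraries. Pcna had 43.1, 56.1, 44.4 and 52.6 CPM in KO day 7 libraries, against 46.9, 44.4, 31.7 and 36.1 CPM in KO naive libraries. In KI libraries Pcna had 49.4, 39.2, 55.7 and 47.4 CPM at day 7, against 43.5, 40.6, 45.5 and 45.8 CPM in naive cells. WT libraries gave Pcna 44.2, 50.6, 39.0, 40.1 and 48.7 CPM at day 7, against 42.9, 34.1, 40.7 and 44.9 CPM in naive cells. Pcna missed the threshold (0.18, SE 0.07, adjusted p = 0.0875). Uhrf1 brings the maintenance methyltransferase to newly copied DNA. Uhrf1 had 11.2, 24.6, 14.9 and 10.1 CPM in KO day 7 libraries, against 6.03, 5.03, 6.72 and 10.8 CPM in KO naive libraries. In KI libraries Uhrf1 had 24.4, 7.47, 5.52 and 16.9 CPM at day 7, against 4.16, 5.83, 9.11 and 2.88 CPM in naive cells. WT libraries gave Uhrf1 11.7, 12.3, 11.9, 6.65 and 14.4 CPM at day 7, against 6.12, 6.85, 4.35 and 8.87 CPM in naive cells. Uhrf1 rose in the average (1.03, SE 0.22, adjusted p = 0.00237), with 9 of 13 day 7 libraries above all naive libraries. Top2a untangles DNA at the fork and in mitosis. Top2a had 41.0, 100.1, 31.6 and 26.0 CPM in KO day 7 libraries, against 21.6, 11.4, 31.2 and 26.9 CPM in KO naive libraries. In KI libraries Top2a had 84.0, 20.9, 22.9 and 57.5 CPM at day 7, against 16.99, 16.2, 35.8 and 9.72 CPM in naive cells. WT libraries gave Top2a 42.1, 42.9, 43.8, 12.1 and 37.3 CPM at day 7, against 16.01, 28.9, 14.7 and 21.03 CPM in naive cells. Top2a rose (1.03, SE 0.26, adjusted p = 0.00932), with WT day 7 replicate 4 below all but 2 of the naive libraries. Hmgb2 is a chromatin protein of the HMG-box family, raised in dividing cells (chromosome 8, 57511907 to 57515999). It had the highest level per length of the 40, at 28.5 CPM per kb. Hmgb2 had 99.6, 139, 86.6 and 83.6 CPM in KO day 7 libraries, against 69.9, 57.7, 72.6 and 79.2 CPM in KO naive libraries. In KI libraries Hmgb2 had 132, 78.2, 88.9 and 123 CPM at day 7, against 56.4, 54.4, 87.8 and 53.0 CPM in naive cells. WT libraries gave Hmgb2 134, 101, 115, 69.1 and 102 CPM at day 7, against 76.5, 64.1, 59.1 and 60.4 CPM in naive cells. Hmgb2 rose in the average (0.65, SE 0.11, adjusted p = 0.000168). It was also called in KI (0.73, SE 0.19, adjusted p = 0.0353) and in WT cells (0.68, SE 0.18, adjusted p = 0.0446), and not in KO cells (0.54, SE 0.19, adjusted p = 0.198), where the groups did not overlap.

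**Figure D3:**
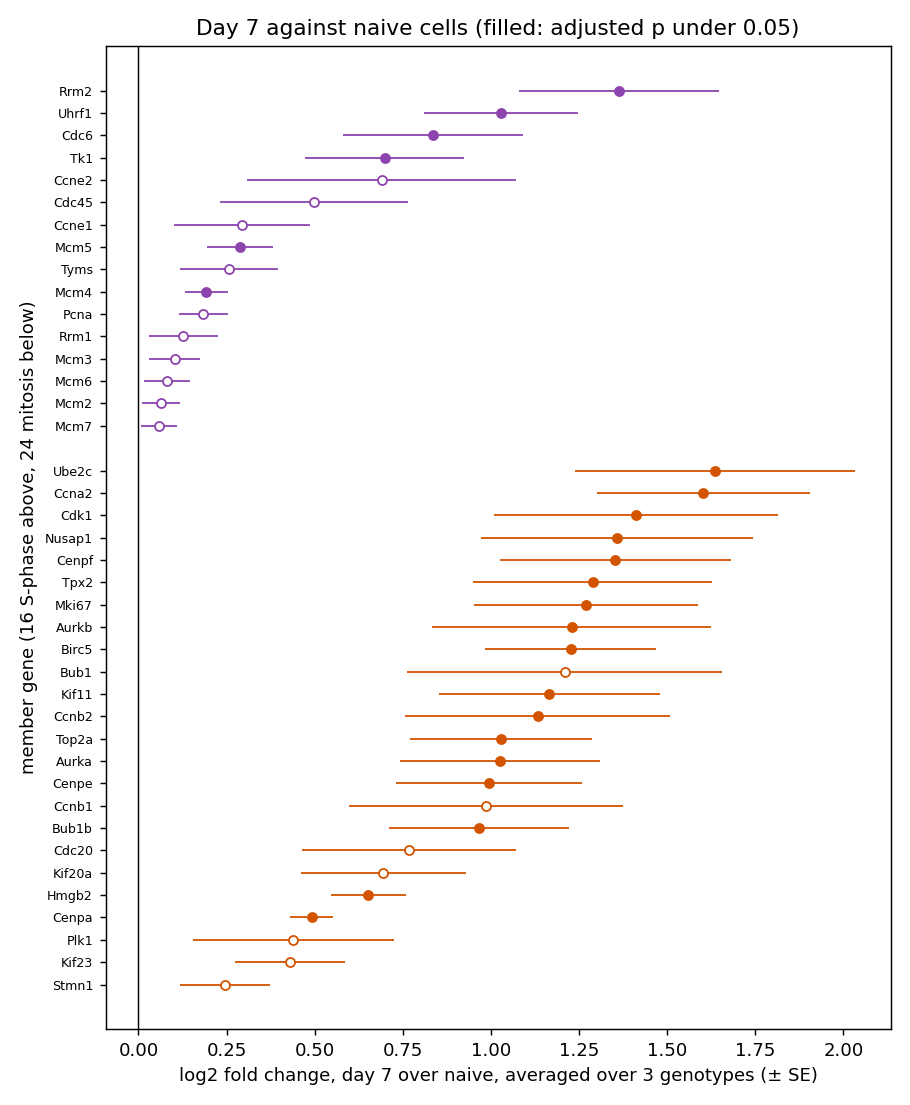
Averaged log2 fold change of day 7 over naive cells (x axis, ± SE) for each gene, S-phase genes above and mitosis genes below, each sorted by size; filled points passed the test. All 40 points lie right of 0, from 0.06 for Mcm7 to 1.64 for Ube2c, and Cenpa passed at 0.49 with an SE of 0.06.

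Among the cyclins and their kinase 3 of 6 rose, or 1 of 6 (Ccna2) without the 2 high libraries, and neither E-type cyclin was called. Cyclin A2, from Ccna2, acts with CDK2 and CDK1 from S phase into mitosis. Ccna2 had 5.45, 14.3, 6.77 and 4.33 CPM in KO day 7 libraries, against 1.21, 0.921, 2.64 and 3.04 CPM in KO naive libraries. In KI libraries Ccna2 had 10.5, 1.85, 1.81 and 7.18 CPM at day 7, against 1.23, 1.52, 3.27 and 0.759 CPM in naive cells. WT libraries gave Ccna2 4.13, 5.99, 6.39, 1.86 and 4.09 CPM at day 7, against 1.26, 1.88, 1.88 and 2.06 CPM in naive cells. Ccna2's averaged log2 fold change was 1.60, SE 0.30, adjusted p = 0.000738, and KO groups did not overlap; its exons overlap those of Exosc9 on the other strand. Cdk1 is the kinase that drives entry into mitosis. Cdk1 had 2.68, 7.53, 0.531 and 0.878 CPM in KO day 7 libraries, against 1.47, 0.496, 0.314 and 1.66 CPM in KO naive libraries. In KI libraries Cdk1 had 4.86, 0.770, 1.54 and 3.54 CPM at day 7, against 0.679, 0.799, 1.98 and 0.759 CPM in naive cells. WT libraries gave Cdk1 3.08, 1.69, 2.14, 0.864 and 1.44 CPM at day 7, against 0.157, 0.940, 0.353 and 1.03 CPM in naive cells. Cdk1 rose (1.41, SE 0.40, adjusted p = 0.0218) on low counts, between 1 and 103 per library. Ccnb2 codes for a B-type cyclin, the partner of CDK1. Ccnb2 had 4.98, 6.02, 0.111 and 1.82 CPM in KO day 7 libraries, against 0.917, 0.779, 1.63 and 1.57 CPM in KO naive libraries. In KI libraries Ccnb2 had 5.43, 1.15, 1.498 and 4.41 CPM at day 7, against 1.63, 1.12, 2.42 and 0.759 CPM in naive cells. WT libraries gave Ccnb2 1.52, 2.31, 4.42, 1.55 and 4.21 CPM at day 7, against 1.10, 1.07, 1.18 and 1.96 CPM in naive cells. Ccnb2 passed narrowly (1.13, SE 0.38, adjusted p = 0.0496), lost this call in 21 of 31 alternative fits, and was lowest of all libraries in KO day 7 replicate 3. Ccne1 codes for cyclin E1, which acts with CDK2 at the start of S phase. Ccne1 had 5.32, 7.72, 5.84 and 3.01 CPM in KO day 7 libraries, against 4.14, 3.68, 7.04 and 5.62 CPM in KO naive libraries. In KI libraries Ccne1 had 8.88, 3.93, 2.40 and 4.24 CPM at day 7, against 2.80, 4.47, 4.15 and 3.34 CPM in naive cells. WT libraries gave Ccne1 4.34, 2.31, 7.25, 5.23 and 4.93 CPM at day 7, against 2.98, 3.36, 3.999 and 4.64 CPM in naive cells. Ccne1 was not called (0.29, SE 0.19, adjusted p = 0.381). Ccnb1, the other B-type cyclin, ran from 0.152 to 8.38 CPM and was not called (0.99, SE 0.39, adjusted p = 0.105), and neither was Ccne2, for cyclin E2 (0.0628 to 1.79 CPM, 0.69, SE 0.38, adjusted p = 0.276).

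Of the mitotic kinases and their partners 4 of 6 rose, or 1 of 6 (Birc5) without the 2 high libraries. Birc5, or survivin, is the passenger-complex subunit that docks Aurora B at centromeres (chromosome 11, 117849251 to 117855743). Birc5 had 4.13, 7.72, 2.92 and 2.51 CPM in KO day 7 libraries, against 2.83, 1.35, 1.13 and 2.09 CPM in KO naive libraries. In KI libraries Birc5 had 6.71, 2.54, 1.89 and 3.11 CPM at day 7, against 1.31, 1.60, 2.24 and 0.911 CPM in naive cells. WT libraries gave Birc5 4.23, 1.998, 2.66, 1.90 and 3.01 CPM at day 7, against 0.942, 0.806, 0.941 and 1.65 CPM in naive cells. Birc5 rose (1.23, SE 0.24, adjusted p = 0.00119), and WT groups did not overlap. Aurkb codes for Aurora B itself. Aurkb had 1.28, 6.97, 0.752 and 1.13 CPM in KO day 7 libraries, against 0.550, 0.496, 0.503 and 0.720 CPM in KO naive libraries. In KI libraries Aurkb had 4.203, 0.462, 0.907 and 2.25 CPM at day 7, against 0.742, 0.799, 1.64 and 0.152 CPM in naive cells. WT libraries gave Aurkb 0.993, 1.69, 3.31, 0.561 and 1.62 CPM at day 7, against 1.10, 2.01, 0.706 and 0.825 CPM in naive cells. Aurkb rose in the average (1.23, SE 0.40, adjusted p = 0.0427) with KO groups apart, although KO day 7 replicate 3 lay only just above the highest KO naive library. Aurkb lost this call in 18 of 31 alternative fits. Aurka, Aurora A, matures the spindle poles. Aurka had 4.21, 3.86, 2.21 and 1.94 CPM in KO day 7 libraries, against 2.10, 1.204, 1.63 and 1.08 CPM in KO naive libraries. In KI libraries Aurka had 4.35, 2.23, 0.828 and 3.80 CPM at day 7, against 1.04, 0.799, 1.38 and 1.06 CPM in naive cells. WT libraries gave Aurka 1.52, 3.07, 0.587, 1.08 and 2.28 CPM at day 7, against 0.471, 0.537, 0.941 and 1.86 CPM in naive cells. Aurka rose (1.03, SE 0.29, adjusted p = 0.0183), with WT groups overlapping. Bub1b is a spindle-checkpoint protein. Bub1b had 5.28, 14.8, 6.08 and 4.83 CPM in KO day 7 libraries, against 2.31, 2.83, 6.10 and 5.40 CPM in KO naive libraries. In KI libraries Bub1b had 15.5, 8.24, 3.78 and 7.26 CPM at day 7, against 3.67, 3.83, 5.46 and 2.13 CPM in naive cells. WT libraries gave Bub1b 6.37, 8.30, 9.36, 2.50 and 7.995 CPM at day 7, against 1.10, 4.70, 3.999 and 4.85 CPM in naive cells. Bub1b rose (0.97, SE 0.26, adjusted p = 0.0133), with 8 of 13 day 7 libraries above all naive libraries. Plk1 is a kinase of many mitotic steps. Plk1 had 2.38, 6.59, 2.99 and 1.13 CPM in KO day 7 libraries, against 2.54, 3.19, 2.51 and 2.86 CPM in KO naive libraries. In KI libraries Plk1 had 5.57, 1.69, 1.69 and 5.01 CPM at day 7, against 1.06, 1.84, 2.31 and 2.13 CPM in naive cells. WT libraries gave Plk1 4.70, 3.54, 2.24, 0.518 and 3.07 CPM at day 7, against 3.30, 2.55, 1.65 and 2.47 CPM in naive cells. Plk1 was not called (0.44, SE 0.29, adjusted p = 0.373). Bub1, the checkpoint kinase, was not called either (1.21, SE 0.45, adjusted p = 0.0809) and had no count in KI naive replicate 4 and WT naive replicate 1, which allows up to 0.455 and 0.471 CPM there (3 counts, counting error only).

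The anaphase-promoting complex ends mitosis with the help of Ube2c, its ubiquitin-conjugating enzyme, and Cdc20, its activator. Ube2c had 3.15, 10.1, 0.819 and 1.69 CPM in KO day 7 libraries, against 0.393, 1.35, 0.189 and 0.742 CPM in KO naive libraries. In KI libraries Ube2c had 8.27, 1.62, 1.42 and 3.80 CPM at day 7, against 0.615, 0.799, 2.09 and 1.52 CPM in naive cells. WT libraries gave Ube2c 0.940, 2.46, 2.42, 0.734 and 2.22 CPM at day 7, against 0.785, 0.940, 0.471 and 1.75 CPM in naive cells. Ube2c had the largest averaged log2 fold change of the 40 (1.64, SE 0.40, adjusted p = 0.00706) and was not called without the 2 high libraries; its exons overlap Tnnc2 on the other strand. Cdc20 also binds the substrates that are destroyed at anaphase. Cdc20 had 4.30, 4.52, 4.82 and 2.20 CPM in KO day 7 libraries, against 1.57, 0.567, 2.58 and 2.88 CPM in KO naive libraries. In KI libraries Cdc20 had 4.06, 1.92, 1.66 and 3.29 CPM at day 7, against 0.954, 1.44, 2.53 and 1.21 CPM in naive cells. WT libraries gave Cdc20 1.93, 2.77, 4.21, 0.864 and 4.21 CPM at day 7, against 1.41, 3.49, 0.235 and 2.89 CPM in naive cells. Cdc20 was not called (0.77, SE 0.30, adjusted p = 0.105).

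All 3 centromere proteins rose, or 2 of 3 (Cenpa and Cenpf) without the 2 high libraries. Cenpa, the histone H3 variant that marks centromeres (chromosome 5, 30666777 to 30674830), changed most evenly. Cenpa had 28.7, 34.3, 29.9 and 31.4 CPM in KO day 7 libraries, against 19.99, 19.3, 20.2 and 25.4 CPM in KO naive libraries. In KI libraries Cenpa had 31.2, 28.1, 23.2 and 29.6 CPM at day 7, against 21.7, 17.2, 21.8 and 22.5 CPM in naive cells. WT libraries gave Cenpa 34.9, 30.1, 28.8, 29.5 and 31.9 CPM at day 7, against 21.98, 22.4, 21.8 and 21.3 CPM in naive cells. Cenpa groups did not overlap in any genotype, and 12 of 13 day 7 libraries lay above all naive libraries. Its averaged log2 fold change was 0.49, SE 0.06, adjusted p = 2.80e-06, the smallest p of the 40. Within genotypes it was 0.54, SE 0.10, adjusted p = 0.0122 in KO, 0.43, SE 0.11, adjusted p = 0.0306 in KI and 0.51, SE 0.10, adjusted p = 0.00692 in WT cells. Cenpe is a motor that carries chromosomes to the spindle equator. Cenpe had 8.34, 34.5, 10.9 and 7.72 CPM in KO day 7 libraries, against 7.78, 4.53, 11.6 and 7.67 CPM in KO naive libraries. In KI libraries Cenpe had 31.4, 6.54, 7.49 and 19.5 CPM at day 7, against 4.26, 5.27, 8.57 and 4.86 CPM in naive cells. WT libraries gave Cenpe 10.8, 13.7, 12.2, 4.06 and 12.7 CPM at day 7, against 6.12, 9.53, 6.12 and 6.50 CPM in naive cells. Cenpe rose (0.99, SE 0.26, adjusted p = 0.0135), while KO day 7 libraries other than replicate 2 overlapped naive ones and WT day 7 replicate 4 was the lowest of all 25. Cenpf is a kinetochore protein of late cycle. Cenpf had 14.0, 35.2, 7.85 and 7.97 CPM in KO day 7 libraries, against 3.20, 1.56, 6.35 and 5.76 CPM in KO naive libraries. In KI libraries Cenpf had 25.9, 6.39, 6.74 and 22.6 CPM at day 7, against 4.47, 6.23, 10.4 and 3.19 CPM in naive cells. WT libraries gave Cenpf 15.9, 13.1, 12.05, 1.38 and 10.2 CPM at day 7, against 5.18, 7.79, 2.71 and 7.01 CPM in naive cells. Cenpf rose (1.35, SE 0.33, adjusted p = 0.00704) with KO groups apart, while WT day 7 replicate 4 was the lowest of all 25 libraries.

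Spindle motors and microtubule proteins rose in 3 of 6 cases, or in 0 of 6 without the 2 high libraries. Kif11 is the motor that pushes spindle poles apart. Kif11 had 7.83, 27.5, 7.85 and 4.58 CPM in KO day 7 libraries, against 6.52, 2.34, 5.03 and 6.18 CPM in KO naive libraries. In KI libraries Kif11 had 23.3, 3.23, 5.72 and 12.5 CPM at day 7, against 3.97, 4.07, 7.75 and 1.82 CPM in naive cells. WT libraries gave Kif11 12.9, 10.6, 12.1, 2.33 and 8.24 CPM at day 7, against 4.08, 6.18, 2.94 and 4.64 CPM in naive cells. Kif11 rose (1.17, SE 0.31, adjusted p = 0.0145), with 9 of 13 day 7 libraries above all naive ones. Tpx2 activates Aurora A on the spindle. Tpx2 had 4.34, 18.6, 10.2 and 3.83 CPM in KO day 7 libraries, against 3.27, 1.77, 4.84 and 5.87 CPM in KO naive libraries. In KI libraries Tpx2 had 16.01, 2.69, 3.31 and 9.86 CPM at day 7, against 1.87, 2.16, 5.58 and 0.911 CPM in naive cells. WT libraries gave Tpx2 6.69, 4.15, 7.39, 1.08 and 5.83 CPM at day 7, against 1.57, 3.22, 1.29 and 2.78 CPM in naive cells. Tpx2 rose (1.29, SE 0.34, adjusted p = 0.0130). Nusap1 bundles spindle microtubules. Nusap1 had 3.53, 8.57, 1.68 and 2.57 CPM in KO day 7 libraries, against 0.262, 0.779, 1.19 and 2.72 CPM in KO naive libraries. In KI libraries Nusap1 had 8.27, 2.46, 3.59 and 3.72 CPM at day 7, against 1.17, 1.84, 3.27 and 0.455 CPM in naive cells. WT libraries gave Nusap1 4.60, 2.61, 6.25, 0.345 and 2.65 CPM at day 7, against 0.785, 2.01, 0.706 and 2.58 CPM in naive cells. Nusap1 rose (1.36, SE 0.39, adjusted p = 0.0211), and its exons overlap those of Oip5 on the other strand. Kif23 is a motor of the midbody, where dividing cells part. Kif23 had 10.9, 19.1, 15.7 and 10.2 CPM in KO day 7 libraries, against 7.20, 4.75, 10.6 and 11.9 CPM in KO naive libraries. In KI libraries Kif23 had 16.6, 6.54, 8.67 and 11.1 CPM at day 7, against 7.91, 8.86, 12.1 and 7.13 CPM in naive cells. WT libraries gave Kif23 14.1, 11.4, 12.7, 6.91 and 13.3 CPM at day 7, against 8.79, 9.40, 8.47 and 9.38 CPM in naive cells. Kif23 was not called (0.43, SE 0.16, adjusted p = 0.0749). Stmn1 frees tubulin by taking microtubules apart. Stmn1 had 15.96, 24.002, 18.98 and 14.7 CPM in KO day 7 libraries, against 12.1, 11.3, 18.7 and 14.1 CPM in KO naive libraries. In KI libraries Stmn1 had 23.7, 10.3, 11.5 and 16.8 CPM at day 7, against 10.7, 13.5, 18.7 and 9.41 CPM in naive cells. WT libraries gave Stmn1 18.97, 12.6, 14.5, 12.5 and 13.8 CPM at day 7, against 13.5, 14.4, 12.4 and 13.4 CPM in naive cells. Stmn1 was not called (0.25, SE 0.13, adjusted p = 0.244), and its groups overlap in every genotype. Kif20a, a motor of the central spindle, ran from 1.36 to 10.5 CPM and missed the threshold (0.69, SE 0.23, adjusted p = 0.0526), though KO groups did not overlap.

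Mki67 codes for Ki-67, which coats mitotic chromosomes and is the common stain for cycling cells (chromosome 7, 135689784 to 135716361). Mki67 had 61.7, 246, 60.1 and 51.9 CPM in KO day 7 libraries, against 40.3, 19.3, 52.5 and 53.0 CPM in KO naive libraries. In KI libraries Mki67 had 205.6, 39.7, 45.1 and 123 CPM at day 7, against 27.2, 29.7, 67.2 and 14.3 CPM in naive cells. WT libraries gave Mki67 95.3, 95.4, 95.5, 13.6 and 74.2 CPM at day 7, against 26.1, 53.7, 26.8 and 45.2 CPM in naive cells. Mki67 varied 18.1-fold over the libraries, and 7 of 13 day 7 libraries lay above all naive libraries. Its averaged log2 fold change was 1.27, SE 0.32, adjusted p = 0.00892, and its log2 fold changes were 1.32 in KO, 1.52 in KI and 0.97 in WT. It was not called without the 2 high libraries.

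**Figure D4:**
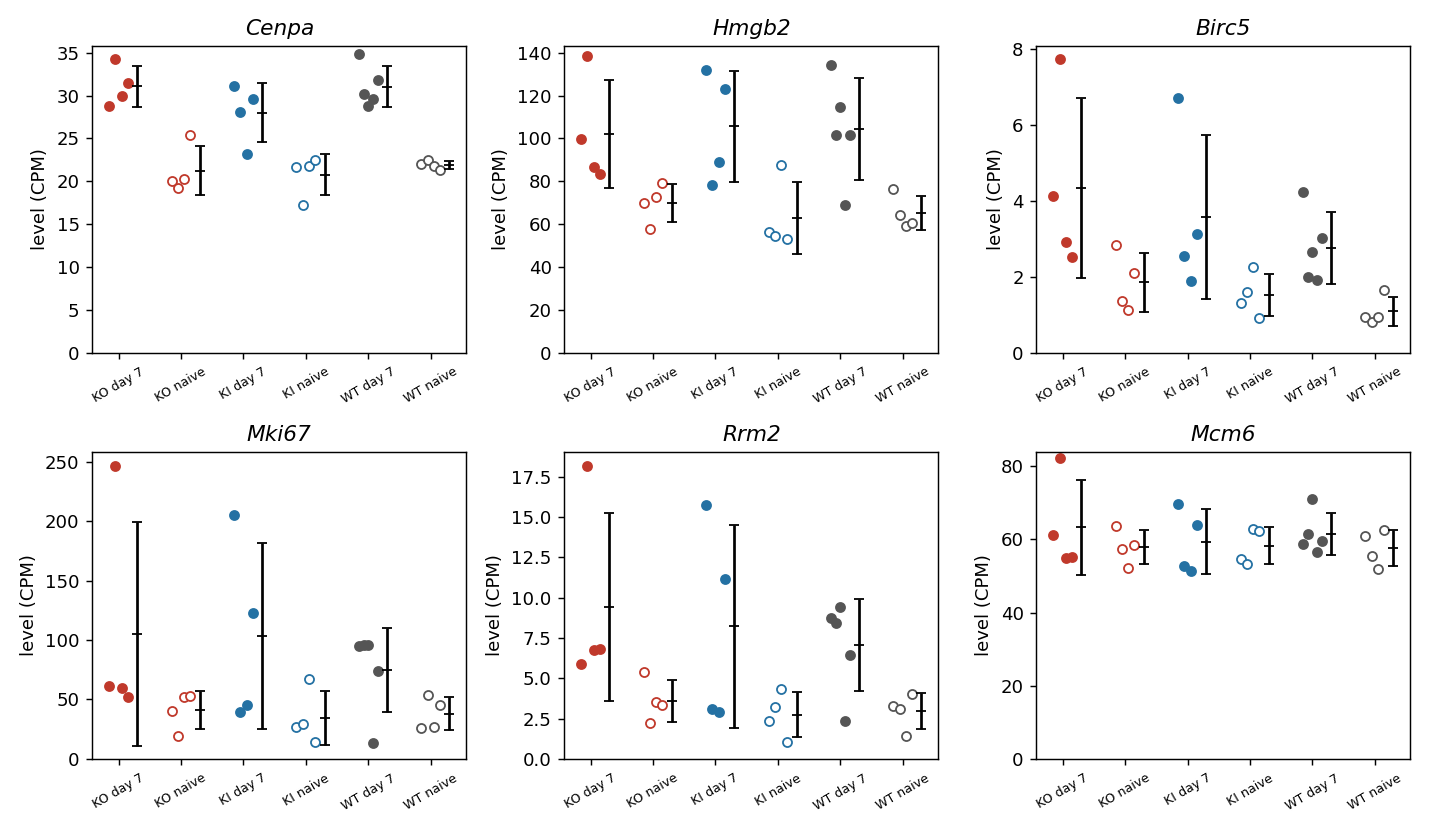
Level (CPM) in each library by group for 6 genes; filled points are day 7, open points naive, and the bar beside each group is its mean ± SD. Cenpa separates day 7 from naive in all 3 genotypes with a narrow spread, Mki67 reaches 246 CPM in KO day 7 replicate 2, and the groups of Mcm6 overlap.

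For the knock-out and knock-in, the question is whether these genes differed from those of wild-type cells. No gene of the 40 was called in any of the 6 genotype comparisons by edgeR, DESeq2 or limma voom. Of all genes, edgeR called 0.0204% in naive KO against naive WT cells and 0.0476% in day 7 KO against day 7 WT cells. It called 0.0136% in naive KI against naive WT cells, and 0% in day 7 KI against day 7 WT cells and in the interactions of each allele with stage. Unadjusted p was under 0.05 for 1 gene in the naive KO comparison, for 1 in the KO interaction and for 0 in the other 4. The gene with the smallest p was Mcm4 in naive KO cells (-0.28, SE 0.11, adjusted p = 0.534) and Mcm5 in day 7 KO cells (0.31, SE 0.15, adjusted p = 0.526). In KI cells it was Mcm4 when naive (-0.18, SE 0.11, adjusted p = 0.9995) and Ube2c at day 7 (1.14, SE 0.61, adjusted p = 0.999). In the interactions, that is the day 7 change in the mutant minus that in WT, it was Mcm4 for KO (0.43, SE 0.15, adjusted p = 0.516) and Rrm1 for KI (0.41, SE 0.24, adjusted p = 0.999). A missed threshold does not show that levels are alike: at day 7 an SE of 0.61 on Ube2c leaves room for changes of more than 2-fold.

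Medians in the genotype comparisons moved with single libraries. Over the 40 genes the median log2 difference at day 7 was 0.30 for KO against WT cells and -0.0596 without KO day 7 replicate 2 or 0.14 without WT day 7 replicate 4. For KI against WT cells at day 7 it was 0.26, and -0.11 without KI day 7 replicate 1 or 0.0543 without WT day 7 replicate 4. The KO interaction had a median of 0.27, and -0.0397 without KO day 7 replicate 2 or 0.12 without WT day 7 replicate 4. The KI interaction had a median of 0.20, and -0.13 without KI day 7 replicate 1 or 0.0361 without WT day 7 replicate 4. It was 0.43 without KI naive replicate 3. In naive cells the medians were 0.08 for KO and 0.01 for KI against WT cells, with -0.0127 for KO without KO naive replicate 4 and -0.20 for KI without KI naive replicate 3.

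Further genes of the cycle were taken from written lists. Of 50 further mitosis genes, all tested, 22 were called higher and 1 lower in the average, beside 6.16% higher and 5.06% lower of all genes, with a median log2 fold change of 0.81. Without the 2 high libraries 6 of 49 tested were called higher, Cit, H2afz and H2afx among them, and 1 lower, beside 4.94% higher of all genes. Cit, citron kinase of the midbody, rose (1.22, SE 0.24, adjusted p = 0.00130). Cit averaged 11.1 ± 6.56 CPM in KO day 7 cells and 4.05 ± 1.10 CPM in KO naive cells (SD, n = 4 each). In KI cells Cit averaged 11.2 ± 7.58 CPM at day 7 and 4.22 ± 1.29 CPM when naive (SD, n = 4 each). In WT cells Cit averaged 6.98 ± 2.40 CPM at day 7 (SD, n = 5) and 3.75 ± 1.84 CPM when naive (SD, n = 4). H2afz (0.39, SE 0.07, adjusted p = 0.000194) and H2afx (0.67, SE 0.14, adjusted p = 0.00220), the histones H2A.Z and H2A.X, rose as well. Smc4, a condensin subunit, fell (-0.26, SE 0.05, adjusted p = 0.000704). Smc4 averaged 622 ± 74.1 CPM in KO day 7 cells and 686 ± 37.7 CPM in KO naive cells (SD, n = 4 each). In KI cells Smc4 averaged 537 ± 47.3 CPM at day 7 and 630.0 ± 80.9 CPM when naive (SD, n = 4 each). In WT cells Smc4 averaged 535 ± 45.8 CPM at day 7 (SD, n = 5) and 714 ± 42.3 CPM when naive (SD, n = 4). Of 38 further replication genes, all tested, 5 (13.2%) were called higher, beside 6.16% of all genes, and 0 lower, with a median of 0.13. Without the 2 high libraries 2 (5.26%) were called higher, Pole and Orc1, which is near the 4.94% of all genes in that fit. Among the 5 were Pole (0.54, SE 0.14, adjusted p = 0.0100), the leading-strand polymerase, and Clspn (0.95, SE 0.24, adjusted p = 0.0109), a checkpoint mediator at the fork. Orc1 (1.54, SE 0.39, adjusted p = 0.0111), of the origin recognition complex, and Mcm10 (1.37, SE 0.41, adjusted p = 0.0296), a firing factor, rose as well.

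Genes that hold the cycle back were listed as well. Of the 15 listed inhibitors of cyclin-dependent kinases, pocket proteins and quiescence factors, 12 were tested, 6 were called higher, with or without the 2 high libraries, beside 6.16% of all genes, and 0 lower, beside 5.06%. Their median log2 fold change was 0.30. Btg1, an antiproliferative factor of resting lymphocytes, rose (0.65, SE 0.04, adjusted p = 1.01e-11). Btg1 averaged 599 ± 53.4 CPM in KO day 7 cells and 389 ± 37.2 CPM in KO naive cells (SD, n = 4 each). In KI cells Btg1 averaged 659.6 ± 34.3 CPM at day 7 and 481 ± 35.4 CPM when naive (SD, n = 4 each). In WT cells Btg1 averaged 739 ± 28.5 CPM at day 7 (SD, n = 5) and 404 ± 32.4 CPM when naive (SD, n = 4). Its relative Btg2 (0.29, SE 0.07, adjusted p = 0.00512), the quiescence factor Klf2 (0.51, SE 0.06, adjusted p = 1.60e-06) and Cdkn1b, the CDK inhibitor p27 (0.30, SE 0.04, adjusted p = 2.62e-05), rose too.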

How the data were processed

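RNA of sorted CD4 T cells was extracted with miRNeasy Mini kits, made into SMARTer Stranded Total RNA-Seq Pico libraries and read paired-end on a NovaSeq instrument, per the labels' protocols. The authors deposited raw counts per Ensembl gene. Per the submitters' processing notes the build was mm10 and DESeq2 was used; aligner, counter, strand setting and annotation are not given in the sources used here. Exons of 12 members overlap another gene (Cdc45, Mcm7, Tk1, Top2a, Ccne2, Ccna2, Plk1, Cdc20, Ube2c, Kif20a, Nusap1 and Stmn1), so those values are uncertain. Symbols and positions came from GENCODE M21 (45229 of 46078 IDs matched).

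Genes were kept by filterByExpr (minimum count 10, minimum total 15), scaled by TMM and fitted with edgeR 4.0.16 (R 4.3.3) to the 25 libraries together (6 group means, no covariates). CPM are TMM-scaled. Tests were two-sided. SE is the log2 fold change divided by the square root of F. No pair of libraries in a group agreed within sampling noise (lowest chi-square per degree of freedom 5.01). Alternatives used DESeq2 1.42.0 and limma 3.58.1, among others. The procedure was tested on simulated data. Library-by-library values were given for members called in a day 7 comparison and the 2 of highest mean in each role, and of each further list up to 4 called genes with the smallest p. Members and lists were chosen with earlier results of these data known.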

Additional observations from a re-analysis of the deposited data

Results flagged for a closer look

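Over 34 measures in each of 6 groups of 4 or 5 libraries, 20 sets of values had a library whose gap to its neighbour was above Dixon's 95% limit; chance flags about 1 group in 20, or 10.2 of these sets. In KO day 7 replicate 2 the mitosis sum stood apart at 792 CPM. Its genes so marked were Mki67 (246 CPM), Cenpe (34.5 CPM), Kif11 (27.5 CPM), Rrm2 (18.2 CPM), Bub1b (14.8 CPM), Cdc6 (7.06 CPM) and Aurkb (6.97 CPM). In WT day 7 replicate 4 the low values were the S-phase sum (339.8 CPM), the mitosis sum (169 CPM), Mki67 (13.6 CPM) and Top2a (12.1 CPM).

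In KI naive replicate 3, Hmgb2 (87.8 CPM), Rrm1 (23.5 CPM) and Cdk1 (1.98 CPM) were high for their group. Cenpa was high in KO naive replicate 4 (25.4 CPM) and low in KI naive replicate 2 (17.2 CPM). Naive WT libraries had high values of Birc5 (1.65 CPM) and Ccnb2 (1.96 CPM) in replicate 4 and of Cenpe (9.53 CPM) in replicate 2.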

How the results depend on the processing

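The count of 23 members called in the average was 15 with sets of library numbers as a covariate, 15 with limma voom and 7 without KO day 7 replicate 2 and KI day 7 replicate 1, which were chosen after seeing the data. It was 15 to 26 when each library was left out in turn, lowest without KI day 7 replicate 1 and highest without WT day 7 replicate 4 or KI day 7 replicate 2. Without any 1 library 15 members kept their call: Rrm2, Uhrf1, Top2a, Hmgb2, Ccna2, Aurka, Birc5, Bub1b, Ube2c, Cenpa, Cenpe, Cenpf, Kif11, Tpx2 and Mki67. With no low-count filter it was 29, and with a stricter filter 16 of 26 tested. Within genotypes, no filter called 18 members in KO, 14 in KI and 12 in WT cells, beside 1, 2 and 2. The KO count was 0 in a fit of its own groups and with voom, 4 with DESeq2, and 0 to 2 when libraries were left out (0 without KO naive replicate 1, 2 or 3, and 2 without KO day 7 replicate 1). The KI count was 0 in a fit of its own groups and without both high libraries, and 0 to 6 when libraries were left out (6 without KI day 7 replicate 3, 1 without KI day 7 replicate 2 or KI naive replicate 3 or 4, and 0 without any other KI library). The WT count was 1 with library-number sets and 1 to 2 when libraries were left out (2 without WT day 7 replicate 4, 1 without any other WT library). Between genotypes, no filter called 3 members in day 7 KO cells, 1 in day 7 KI cells and 1 in each interaction; every other alternative called 0. The cause was not tested.

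Of single-member results, 2390 kept direction and side of the threshold, 152 lost and 57 gained a call, and 30 changed sign, none of these called under the alternative. Leaving out libraries, log2 fold changes ran from -0.0735 to 0.0562 for Mcm4 in WT, -0.0255 to 0.19 for Mcm6 in KO, -0.0592 to 0.0936 for Mcm6 in KI, -0.16 to 0.22 for Tyms in KI, -0.10 to 0.29 for Ccne1 in KO, -0.0856 to 0.64 for Ccne1 in KI, -0.13 to 0.45 for Plk1 in WT, -0.33 to 0.49 for Plk1 in KO, -0.0632 to 0.43 for Kif23 in KI and -0.0546 to 0.47 for Stmn1 in KI. Without both high libraries they were -0.0253 for Mcm6 in KO, -0.0593 for Mcm6 in KI, -0.16 for Tyms in KI, -0.10 for Ccne1 in KO, -0.0860 for Ccne1 in KI, -0.33 for Plk1 in KO, -0.0635 for Kif23 in KI and -0.0550 for Stmn1 in KI. Voom gave -0.12 for Ccne1 in KO and -0.31 for Plk1 in KO, and library-number sets -0.0166 for Plk1 in WT. No paired analysis was run, because replicate numbers only give the order within a group and no label pairs libraries of different groups. The sets of neighbouring library numbers are a covariate chosen here, and the labels do not say that neighbours belong together. Depth limits genes of few counts, such as Bub1 and Ccne2.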

Other observations

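The mitosis sum divided by the S-phase sum was 0.845, 1.48, 0.720 and 0.721 in KO day 7 libraries, against 0.572, 0.430, 0.727 and 0.731 in KO naive libraries. In KI cells it was 1.34, 0.658, 0.685 and 1.08 at day 7, against 0.492, 0.493, 0.790 and 0.384 in naive cells. In WT cells it was 1.05, 0.920, 0.971, 0.498 and 0.877 at day 7, against 0.512, 0.672, 0.497 and 0.568 in naive cells. WT day 7 replicate 4 had the lowest ratio of the day 7 libraries.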
